A study of Mus musculus with 12 samples.

Results

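The comparison set 6 mouse heart libraries in which both Asb2 alleles were labelled as floxed against 6 in which 1 allele was. All 12 libraries of the series entered it. The 6 with both alleles floxed, called 2-floxed below, were 3 labelled Asb2 fl/fl and 3 labelled Asb2 fl/fl Flna fl/fl. The 6 with 1 floxed allele, called 1-floxed below, were 3 labelled Asb2 fl/+ and 3 labelled Asb2 fl/+ Flna fl/fl. Every library carried a Cre driver labelled NkxCre, came from the strain labelled C57/BL 6 and was made from RNA of the heart at embryonic day 9.5. No group lacked a floxed Asb2 allele, so the contrast is 2 floxed alleles against 1 in the presence of Cre, not a mutant against wild type. The Flna label was kept as a block, so a pooled difference averages 2 arms, the 6 libraries without the Flna label and the 6 with it. The arms share no library. The labels do not say which Nkx allele drives the Cre, which part of Asb2 is floxed, or whether a library holds 1 embryo or several. The p-values therefore measure only how much these libraries vary, which may be technical in part.

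ASB2 is the subunit through which a cullin 5 ubiquitin ligase recognises its substrates, and filamins, the crosslinkers of actin filaments, are its best known targets. The ligase marks filamins for degradation in muscle and blood cell precursors as they differentiate. At this stage the heart is a beating looped tube that is starting to form trabeculae, it is lined by endocardium, and nucleated primitive red cells pass through it. Cells in low oxygen stabilise hypoxia inducible factors, which switch on glycolysis, angiogenic ligands and collagen-modifying enzymes. Cells short of amino acids or with protein folding trouble raise the transcription factor ATF4, which switches on amino acid transport and synthesis.

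Levels are given in CPM, read counts scaled to the authors' library sizes. A fold change is a difference of log2(CPM + 0.5), 2-floxed minus 1-floxed, which understates the change of genes with few reads. It is given with its standard error (SE) and the Benjamini-Hochberg adjusted p of limma over 13981 genes. A gene is said to have risen or fallen where that adjusted p was under 0.05. Reads in listed genes numbered 25954539 to 42473118 a library, and 1 read came to 0.0239 to 0.038 CPM. The 3 libraries labelled Asb2 fl/fl Flna fl/fl were the deepest, at 40780462 reads or more. Pairs of libraries correlated at 0.969 to 0.987 within groups and at 0.928 to 0.984 between groups. All 12 cardiomyocyte markers passed the filter on low values, with a summed level of 16560.2 to 39871 CPM in the 1-floxed and 22137 to 40782 CPM in the 2-floxed libraries. Xist, the transcript that marks the inactive X chromosome, reached 1 CPM in 5 libraries, of which 2 were 1-floxed (Asb2 fl/+ 2 and 3) and 3 were 2-floxed (Asb2 fl/fl 1 and 3, Asb2 fl/fl Flna fl/fl 3). In Asb2 fl/+ 2, with Xist at 302 CPM, the 4 Y-linked transcripts examined were at 0. The other 4 held both kinds: Xist was 106 CPM in Asb2 fl/+ 3, 571 and 377 CPM in Asb2 fl/fl 1 and 3 and 9.34 CPM in Asb2 fl/fl Flna fl/fl 3, beside Ddx3y, a Y-linked helicase gene, at 51.4, 19.3, 32.2 and 77.2 CPM. Ddx3y was 58.6 to 84.4 CPM in the 7 libraries with Xist under 1 CPM, so a division by Xist does not divide the libraries by presence of Y-linked transcripts. Those 7 were Asb2 fl/+ 1, Asb2 fl/fl 2, the 3 Asb2 fl/+ Flna fl/fl libraries and Asb2 fl/fl Flna fl/fl 1 and 2. Every library with the Flna label held Y-linked transcripts, and only Asb2 fl/fl Flna fl/fl 3 of them reached 1 CPM of Xist. The arms thus differ in these transcripts too, and their part in differences between arms was not tested.

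The level of Asb2 itself (ENSMUSG00000021200, chromosome 12, 103321142 to 103356001, minus strand, GRCm38) did not pass the test in the pooled comparison. It was 289, 183 and 218 CPM in Asb2 fl/+ and 77.8, 163 and 115 CPM in Asb2 fl/fl. With the Flna label it was 125, 113 and 197 CPM in Asb2 fl/+ Flna fl/fl and 122, 121 and 153 CPM in Asb2 fl/fl Flna fl/fl. The 3 Asb2 fl/fl libraries lay below the 3 Asb2 fl/+ libraries, whereas the groups with the Flna label overlapped. The pooled log2 fold change was -0.55 (SE 0.22, adjusted p = 0.0604 by limma), with -0.99 in the arm without the label and -0.10 in the arm with it. The difference between those effects had an unadjusted p of 0.0352 and an adjusted p of 0.503. The pooled value passed without Asb2 fl/+ Flna fl/fl 1 (-0.64, adjusted p = 0.0416) or 2 (-0.67, adjusted p = 0.0264) or without Asb2 fl/fl Flna fl/fl 3 (-0.65, adjusted p = 0.0376), with adjusted p from 0.0239 to 0.153 over all alternatives. A count over the whole gene includes reads from parts that are not deleted, so it does not check the label. The groups are therefore read as libraries labelled with both or with 1 floxed allele.

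The filamin gene Flnc and the talin gene Tln1 rose. Flnc (ENSMUSG00000068699, chromosome 6, 29433256 to 29461883, plus strand), the filamin of striated muscle, had 426 to 723 CPM against 758 to 1544 CPM (medians 531 and 1065) and a log2 fold change of 0.99 (SE 0.21, adjusted p = 0.0019). Tln1, whose product links integrins to actin, had 239 to 326 CPM against 357 to 499 CPM and a log2 fold change of 0.53 (SE 0.10, adjusted p = 9.05e-04). The groups of 6 did not overlap for either gene. Flna (ENSMUSG00000031328, chromosome X, 74223461 to 74249820, minus strand) had 490.3, 554 and 721 CPM in Asb2 fl/+, 1032, 869 and 725 CPM in Asb2 fl/fl, 958, 1011 and 989.5 CPM in Asb2 fl/+ Flna fl/fl and 1012, 1012 and 1146 CPM in Asb2 fl/fl Flna fl/fl. The 3 Asb2 fl/+ libraries were the lowest of the 12, with Asb2 fl/fl 3 close to the highest of them, and the groups of 6 overlapped. The pooled log2 fold change of Flna was 0.34 (SE 0.12, adjusted p = 0.0376), with 0.58 without the label and 0.10 with it. That call was lost under 12 of 28 alternatives, among them leaving out Asb2 fl/+ 1 or 2, Asb2 fl/fl 1 or 2, or Asb2 fl/fl Flna fl/fl 3. The 6 libraries labelled Flna fl/fl had 958 CPM of Flna or more, a level that 1 of the 6 without that label reached, and the whole-gene count does not check that label either. Flna lies on the X chromosome, and every library with this label held Y-linked transcripts. The fl/fl of Flna is therefore given as a label, not as a count of alleles.

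Of the 12 tested members of the list of the ligase and its substrates, 6 rose and 4 fell, beside 21.2% of all tested genes that rose and 23.7% that fell. Those that fell encode ligase components: Tceb1, elongin C (log2 fold change -0.49), Rbx1, a RING subunit that recruits the E2 enzyme (-0.37), Rnf7, the RING subunit usually paired with cullin 5 (-0.24), and Cul5, the scaffold (-0.23). Arih2, which helps cullin 5 ligases place the first ubiquitin, had a log2 fold change of 0.20 and Smad9, a BMP effector, 0.48. By arm, 5 of the 12 members rose and 3 fell without the Flna label, and 3 rose and none fell with it. The call of Rnf7 was lost under 13 of 28 alternatives, among them leaving out Asb2 fl/+ 1 or 2, Asb2 fl/fl 1 or 2, Asb2 fl/+ Flna fl/fl 2 or 3, or Asb2 fl/fl Flna fl/fl 2 (adjusted p from 0.0191 to 0.150 over all alternatives). That of Arih2 was lost under 11, among them leaving out Asb2 fl/+ 2 or 3, Asb2 fl/fl 2, Asb2 fl/+ Flna fl/fl 1 or 2, or any 1 of the Asb2 fl/fl Flna fl/fl libraries (0.0233 to 0.164). With only the 7 libraries that had Xist under 1 CPM the list held 3 rises and 2 falls, and Cul5 and Smad9 did not pass either.

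**Figure D1:**
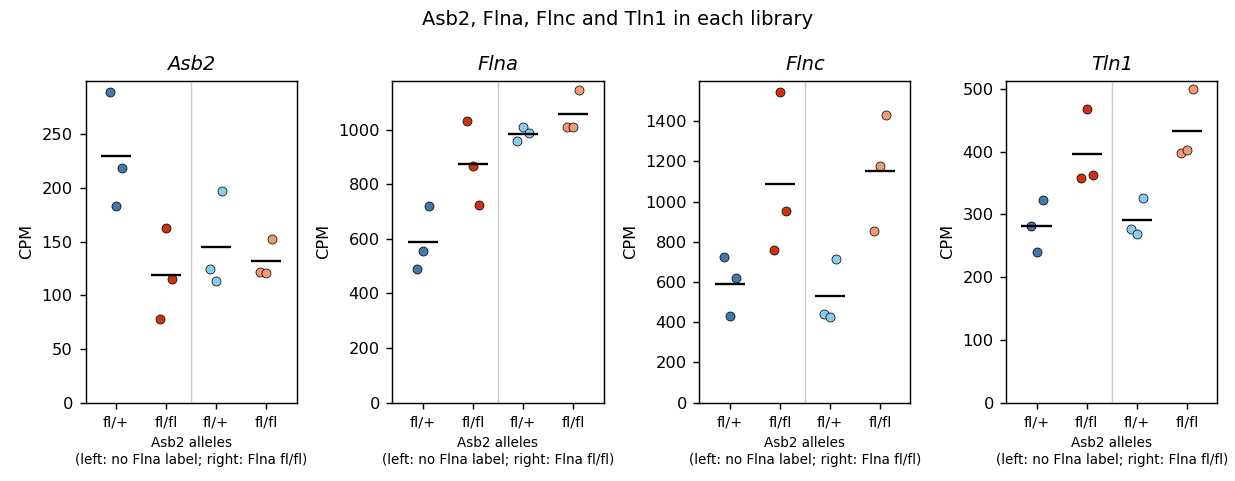
Level in CPM (linear axis from 0) of Asb2, Flna, Flnc and Tln1 in each of the 12 libraries; points are libraries and bars are group means of 3. Flnc and Tln1 sat higher in all 6 libraries with both Asb2 alleles floxed, whereas Asb2 and Flna overlapped between the groups of 6.

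Across the transcriptome, 6271 of 13981 tested genes passed the pooled threshold (44.9%), 2959 higher (21.2%) and 3312 lower (23.7%) in the 2-floxed libraries. Most differences were small, with a median absolute log2 fold change of 0.30 over all tested genes. Rises of 2-fold or more numbered 514 (3.68%) and falls of that size 270 (1.93%), while rises of 4-fold or more numbered 70 (0.501%) and falls 37 (0.265%). For 3089 genes (22.1%) the 6 libraries of one group did not overlap the 6 of the other, 1421 higher (10.2%) and 1668 lower (11.9%). Because so many genes passed, each list below is read against these shares. In bulk tissue, fewer cells of a type and less RNA per cell cannot be told apart.

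The 10 largest rises held mostly genes of the low oxygen and amino acid responses. Stmn4 (chromosome 14, 66344296 to 66361680, plus strand), a stathmin that binds tubulin and is known from neurons, led them with 0.735 to 5.37 CPM against 67.8 to 139 CPM and a log2 fold change of 5.26 (SE 0.40, adjusted p = 1.63e-06). Ndufa4l2 (chromosome 10, 127514967 to 127517154, plus strand), a mitochondrial protein induced by low oxygen, had 3.09, 2.63 and 1.78 CPM in Asb2 fl/+ and 53.2, 80.7 and 66.7 CPM in Asb2 fl/fl. With the Flna label it had 1.42, 1.85 and 2.13 CPM against 85.5, 75.9 and 69.0 CPM. Every 2-floxed library was far above every 1-floxed library, and the log2 fold change was 4.79 (SE 0.16, adjusted p = 4.34e-10), a 27.6-fold rise. Eno2, a neuronal and hypoxia-inducible enolase, rose 19.0-fold (1.77 to 8.06 CPM against 50.7 to 179 CPM), and Ndrg1, a gene induced by several stresses, rose 11.0-fold (3.69 to 9.20 CPM against 43.2 to 81.7 CPM).

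Amino acid transport and stress regulators followed. Slc7a3, a transporter of cationic amino acids, had 0.708 to 2.01 CPM against 19.5 to 60.6 CPM (log2 fold change 4.15, SE 0.27). Trib3, a pseudokinase switched on by ATF4, had 2.96 to 7.57 CPM against 29.9 to 131 CPM (3.79, SE 0.30). Stc2, a secreted glycoprotein induced by stress, kept within 6.35 to 8.09 CPM in the 1-floxed libraries and reached 67.4 to 139.9 CPM in the 2-floxed libraries (3.69, SE 0.14, adjusted p = 1.26e-09). Ddit4, an inhibitor of mTORC1, rose 9.56-fold, Neat1, a long noncoding RNA of nuclear paraspeckles, 10.1-fold, and Dpp6, a partner of voltage-gated potassium channels, 9.35-fold. For each of the 10 genes the groups of 6 did not overlap.

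The 10 largest falls were mostly red cell genes. Hemgn (chromosome 4, 46393989 to 46413506, minus strand), a nuclear protein of blood-forming cells, had 15.3, 18.1 and 24.0 CPM in Asb2 fl/+ and 0.721, 0.190 and 1.65 CPM in Asb2 fl/fl. With the Flna label it had 8.75, 9.04 and 8.19 CPM against 0.763, 0.944 and 0.495 CPM, and no library of one group reached the other. Its log2 fold change was -3.45 (SE 0.28, adjusted p = 7.83e-07). Hbb-y, the embryonic beta-like globin, had 3668, 4119 and 4491 CPM in Asb2 fl/+ and 231, 347 and 567 CPM in Asb2 fl/fl, and 1657, 2025 and 1575 CPM against 322, 234 and 169 CPM with the label. Both 1-floxed groups lay above every 2-floxed library, and Asb2 fl/+ lay above Asb2 fl/+ Flna fl/fl as well. Klf1, the erythroid transcription factor, fell by 3.13 on the log2 scale, Slc4a1, the anion exchanger of the red cell membrane, by 3.08, Pklr, the red cell and liver pyruvate kinase, by 2.93, Csf2rb, the shared beta chain of cytokine receptors, by 2.87, and Trim10, a gene of terminal erythroid differentiation, by 2.83. The other 3 were the globin genes Hba-x, Hbb-bh1 and Hba-a1. Globin genes have near-identical copies, so the split of reads between them is uncertain.

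**Figure D2:**
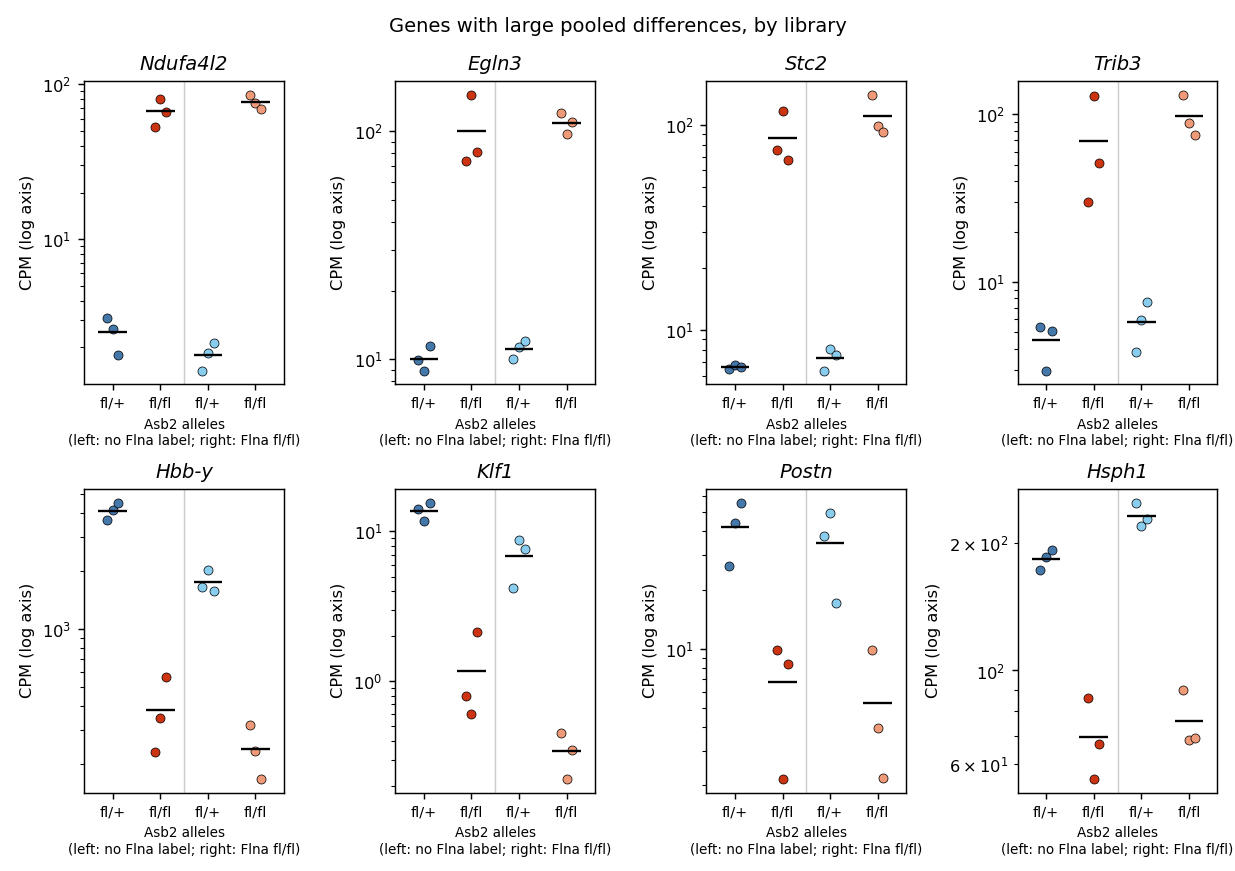
Level in CPM (log axis) of 8 genes with large rises or falls in each of the 12 libraries; points are libraries and bars are group means of 3. For all 8 genes the 6 libraries with both Asb2 alleles floxed did not overlap the 6 with 1, and Hbb-y was also lower in Asb2 fl/+ Flna fl/fl than in Asb2 fl/+.

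Promoter windows from RefSeq (GRCm38.p6, 250 bases before to 50 after the start, 5′ to 3′ on the gene's strand) are printed for some named genes. They are 2 genes of the low oxygen response, 1 of the stress response and 1 red cell gene. Only named genes whose window held a searched motif could be picked, so the presence of a motif was set by the choice. Capitals mark the motif named for each. In P4ha2 (chr11:54100674-54100973, plus strand) and Egln3 (chr12:54203825-54204124, minus strand) it is ACGTG, the core of hypoxia response elements, which P4ha2 holds 2 times and Egln3 1 time. In Atf3 (chr1:191183284-191183583, minus strand) it is TGATGCAA, the element bound by ATF4 dimers, here as its reverse complement. In Hemgn (chr4:46404134-46404433, minus strand) it is AGATAA, a site of GATA factors.
P4ha2: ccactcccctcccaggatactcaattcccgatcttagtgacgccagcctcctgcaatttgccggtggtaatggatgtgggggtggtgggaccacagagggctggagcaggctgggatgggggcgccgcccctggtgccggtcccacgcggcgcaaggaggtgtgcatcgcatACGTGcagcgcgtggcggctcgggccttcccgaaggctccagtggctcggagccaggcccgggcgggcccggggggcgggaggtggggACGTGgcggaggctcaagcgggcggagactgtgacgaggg
Egln3: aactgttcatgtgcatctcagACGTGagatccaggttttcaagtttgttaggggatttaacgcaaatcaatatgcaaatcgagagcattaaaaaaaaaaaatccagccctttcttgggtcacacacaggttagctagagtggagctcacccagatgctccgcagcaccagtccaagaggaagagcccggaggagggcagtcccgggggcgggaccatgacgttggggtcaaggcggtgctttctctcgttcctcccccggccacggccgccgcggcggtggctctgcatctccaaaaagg
Atf3: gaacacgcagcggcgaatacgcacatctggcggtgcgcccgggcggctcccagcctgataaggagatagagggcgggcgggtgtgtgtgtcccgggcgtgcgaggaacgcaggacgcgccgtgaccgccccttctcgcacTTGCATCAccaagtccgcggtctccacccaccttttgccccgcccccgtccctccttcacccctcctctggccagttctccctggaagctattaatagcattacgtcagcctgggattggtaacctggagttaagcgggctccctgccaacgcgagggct
Hemgn: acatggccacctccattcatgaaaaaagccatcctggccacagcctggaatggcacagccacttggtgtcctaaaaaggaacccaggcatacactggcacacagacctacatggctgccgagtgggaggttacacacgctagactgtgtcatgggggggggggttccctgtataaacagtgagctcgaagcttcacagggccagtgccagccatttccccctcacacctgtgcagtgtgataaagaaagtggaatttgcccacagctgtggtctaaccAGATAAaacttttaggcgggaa

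Each motif was searched on both strands, and none of the 4 contains another. A window was found for 10224 of the tested genes (73.1%). ACGTG was in 19 of the 37 windows of the hypoxia and glycolysis list (51.4%), beside 25.9% of the windows of all tested genes and 19.7% of all 27025 windows. TGATGCAA was in 5 of the 28 windows of the stress and amino acid list (17.9%), beside 0.518% of tested and 0.929% of all windows. CCACACCC, a site of KLF factors, was in 3.53% of tested and 3.57% of all windows. AGATAA was in 7 of the 18 windows of the red cell list (38.9%), 6.05% of tested and 11.4% of all windows. Among all genes that rose and all that fell, the shares were near those of tested genes. They were 27.3% and 25.7% for ACGTG and 0.594% and 0.474% for TGATGCAA. For AGATAA they were 5.53% and 6.13%, and for CCACACCC 3.52% and 3.48%. Windows were found for 37 of 44 hypoxia, 28 of 35 stress and 18 of 24 red cell members. The last share, 75.0%, is under the 80% set here as the least coverage of a list, so the comparison is void for the red cell list by that rule. The tested genes themselves were covered at 73.1%, and each share describes only the genes with a window. A match describes these letters and is not a measured binding site.

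Nearly the whole hypoxia and glycolysis list was higher in the 2-floxed libraries. Of its 44 members, all tested, 41 rose and none fell, and 40 were higher with no overlap between the groups of 6, as were 10.2% of all tested genes. The median log2 fold change was 1.61, beside -0.009 over all tested genes. Egln3, a prolyl hydroxylase that hypoxia inducible factors themselves induce, had 8.92 to 11.97 CPM (median 10.7) in the 1-floxed and 74.0 to 144 CPM (median 103) in the 2-floxed libraries, a 9.25-fold rise (log2 fold change 3.21 with SE 0.14, adjusted p = 6.19e-09). P4ha2, a collagen prolyl hydroxylase subunit, had 46.3 to 60.1 CPM against 205 to 392 CPM (2.51, SE 0.12). Among further members, Car9, a membrane carbonic anhydrase, had a log2 fold change of 2.91, Vegfa, the main ligand of angiogenesis, 2.20, Bnip3, a mitophagy receptor, 2.14, Pdk1, which turns pyruvate away from mitochondria, 1.31, and Slc2a1, the basal glucose transporter, 1.08. Enzymes of the glycolytic chain had log2 fold changes of 0.64 (Ldha), 0.73 (Eno1), 0.96 (Aldoa) and 1.06 (Gapdh). The 3 members that did not pass were Pfkfb4 (-0.52), Pfkm (0.05) and Hk1 (0.40). Genes named in this and later paragraphs beyond the naming rule were chosen after their values were seen.

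Genes of the integrated stress response and of amino acid supply were also mostly higher. Of 35 tested members, 31 rose and 1 fell, with a median log2 fold change of 1.00. Beside Slc7a3, Trib3 and Stc2, Vldlr, a lipoprotein receptor, had 16.0 to 21.8 CPM against 106 to 254 CPM, a 9.14-fold rise. Atf3, an early target of ATF4, had 8.63 to 15.9 CPM (median 9.27) against 39.2 to 62.5 CPM (median 55.7) and a log2 fold change of 2.32 (SE 0.15, adjusted p = 1.94e-07). Shmt2, the mitochondrial serine hydroxymethyltransferase, had 1.38, Asns, asparagine synthetase, 1.59, Ddit3, which encodes CHOP, 2.22, and Atf4 itself 0.93. Wars, a tryptophanyl tRNA synthetase gene, was the member that fell (-0.41).

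The chaperones of the endoplasmic reticulum were mostly lower. Of 20 tested members, 12 fell and 2 rose, with a median log2 fold change of -0.42, and 11 were lower with no overlap (11.9% of all tested genes). Creld2, a chaperone induced by unfolded proteins, had 76.6 to 104 CPM against 31.3 to 47.7 CPM (log2 fold change -1.17 with SE 0.10, adjusted p = 1.54e-06). Dnajc3, an inhibitor of eIF2 kinases, fell by 0.95, Dnajb11, a cochaperone of BiP, by 0.92 and Hspa5, which encodes BiP, by 0.73 on the log2 scale. The members that rose were Atf6 (0.60), a sensor of unfolded proteins, and Herpud1 (0.79), a part of the degradation machinery. Of 19 tested heat shock genes 9 fell and 1 rose, with a median of -0.24. Hsph1, a nucleotide exchange factor for HSP70, had 173, 186 and 192 CPM in Asb2 fl/+ and 86.3, 55.4 and 67.0 CPM in Asb2 fl/fl, and 249, 219.9 and 228 CPM against 90.1, 68.5 and 69.3 CPM with the Flna label. The groups did not overlap, and Hsph1 fell by 1.52 on the log2 scale (SE 0.11, adjusted p = 2.67e-07). Hspd1, the mitochondrial chaperonin, fell by 0.75 and Hspa8, the constitutive HSP70, by 0.71, while Hspa1a, an inducible HSP70, rose by 1.01. Without Asb2 fl/fl 1 the heat shock list held 3 rises.

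Immediate early genes, which respond within minutes to growth factors, stretch or tissue handling, held rises and no falls. Of 16 tested members, 10 rose, with a median log2 fold change of 0.70. Ier3, a stress-inducible survival gene, had 3.54 to 8.75 CPM against 27.0 to 59.2 CPM (2.84, SE 0.22), and Btg2, an antiproliferative gene that is also a p53 target, 19.6 to 30.9 CPM against 44.0 to 73.6 CPM (1.22, SE 0.13). Fos (0.50) and Egr1 (0.81), the transcription factors that usually lead this response, did not pass. Atf3 belongs to this list as well as to the stress list.

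Mitochondrial energy genes were lower. Of 53 tested nuclear genes of oxidative phosphorylation, 35 fell and none rose, with a median log2 fold change of -0.36. Atp5g1, a subunit of the ATP synthase rotor, had 72.1 to 141 CPM against 47.9 to 66.5 CPM (log2 fold change -0.81), Cyc1, cytochrome c1, 266 to 417 CPM against 190.2 to 235 CPM (-0.65), and Ndufs1, a core subunit of complex I, 280.2 to 362 CPM against 189.7 to 241 CPM (-0.58). The list's median was -0.65 in the arm without the Flna label, where 50 members fell, and -0.12 in the arm with it, where 6 fell and 1 rose. The difference between arms passed for no gene. With only the 7 libraries that had Xist under 1 CPM, most of them from the arm with the Flna label, 13 members fell.

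Of the 7 tested genes of the mitochondrial genome 5 fell (3 without the Flna block), with medians of -0.93 without and -0.35 with the label. mt-Nd1, a complex I subunit, had 1366, 1528 and 1107 CPM in Asb2 fl/+, 435, 411 and 442 CPM in Asb2 fl/fl, 589, 659.9 and 773 CPM in Asb2 fl/+ Flna fl/fl and 342, 366 and 414 CPM in Asb2 fl/fl Flna fl/fl. The 1-floxed libraries with the Flna label stood between Asb2 fl/+ and the 2-floxed libraries, and the pooled log2 fold change was -1.23 (SE 0.14). In the list of the citric acid cycle 11 of 21 tested members fell and 1 rose. Idh1 (-0.82) and Idh3a (-0.77), both isocitrate dehydrogenase genes, fell, of which Idh1 encodes the cytosolic enzyme and not that of the cycle. Dld (-0.63), a shared subunit of dehydrogenase complexes, fell, and Pcx, pyruvate carboxylase, rose by 0.48.

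Genes of DNA replication and S phase entry were lower. Of 36 tested G1/S members, 29 fell and none rose, with a median log2 fold change of -0.56, and 13 were lower with no overlap. By arm, 15 fell without the Flna label (median -0.48) and 28 with it (median -0.64). Ccne1, cyclin E1, had 71.6 to 84.2 CPM (median 77.0) in the 1-floxed and 19.99 to 48.4 CPM (median 26.8) in the 2-floxed libraries (log2 fold change -1.36 with SE 0.17, adjusted p = 5.56e-05). Rrm2, the regulated subunit of ribonucleotide reductase, had 256 to 292 CPM against 78.1 to 186 CPM (-1.23), and E2f2, an activator of S phase genes, 11.3 to 13.6 CPM against 4.26 to 5.99 CPM (-1.24). Of 30 tested genes of mitosis 18 fell and 2 rose, with a median of -0.29. Without the Flna label 4 fell and 2 rose (median -0.13), where 15.9% of all tested genes fell. With the label 16 fell and none rose (median -0.36), where 14.2% of all tested genes fell. Nuf2, a kinetochore subunit (-0.63), Ccna2, cyclin A2 (-0.43), and Kif23, a kinesin of cytokinesis (-0.42), fell, while the proliferation markers Mki67 (0.05) and Top2a (0.06) did not pass.

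Among 19 tested p53 targets 10 rose and 1 fell. Bbc3, which encodes the proapoptotic PUMA, had 4.57 to 7.27 CPM against 14.6 to 27.9 CPM, a 2.92-fold rise, Cdkn1a, which encodes the inhibitor p21, rose by 1.17 on the log2 scale, and Aen, an apoptotic nuclease, fell by 0.77. Trp53 (-0.14) and Mdm2 (0.05), its ubiquitin ligase, did not pass. Of 53 tested ribosomal protein genes 11 rose (20.8%) and 4 fell (7.55%), beside 21.2% and 23.7% of all tested genes. The rises were 3 without Asb2 fl/+ 3, 4 to 6 without any 1 of Asb2 fl/fl 1 or 3, Asb2 fl/+ Flna fl/fl 1, 2 or 3, or Asb2 fl/fl Flna fl/fl 1 or 2, and 20 with the trend over gene length removed. Rpl22 (0.45), Rpl27 (-1.10) and Rps6 (-0.56) passed, and ribosomal protein genes have processed pseudogenes that can take reads.

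Contractile genes rose in part. Of 38 tested sarcomere members, 13 rose and 1 fell, beside 21.2% and 23.7% of all genes, with a median log2 fold change of 0.33. The median was 0.02 without the Flna label, where 2 rose and 3 fell, and 0.71 with it, where 20 rose and none fell. Lmod2, a leiomodin that elongates thin filaments, had 50.9, 44.5 and 49.7 CPM in Asb2 fl/+ and 81.4, 121 and 126 CPM in Asb2 fl/fl, and 31.6, 28.7 and 47.9 CPM against 110.3, 139.6 and 149 CPM with the label. The groups did not overlap (pooled log2 fold change 1.52 with SE 0.17, adjusted p = 2.47e-05). Tcap, telethonin of the Z disc, had a log2 fold change of 1.34 and Tnnt1, the slow skeletal troponin T, 1.08. Over the alternatives the rises of the list ran from 9 to 20, and they were 20 without Asb2 fl/fl 1.

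The cardiomyocyte markers were spread around 0, with 3 rises and 1 fall (Bmp10, which did not pass without Asb2 fl/+ 1 or 3, Asb2 fl/fl 1 or 3, or Asb2 fl/+ Flna fl/fl 3) among 12 and a median of 0.06 that changed sign over the alternatives. Myh7, the slow myosin heavy chain of the embryonic ventricle, had 2697 to 5973 CPM against 4651 to 10504 CPM (0.93, SE 0.24), with overlap. Ttn, titin, had 337 to 1741 CPM against 1327 to 3200.5 CPM (1.39, SE 0.40, adjusted p = 0.0144), also with overlap, and its call was lost when the trend over gene length was removed (0.52, adjusted p = 0.192). Actc1 (0.31), Tnnt2 (0.01), Myh6 (-0.11) and Nkx2-5 (0.12), which define the cell type, did not pass.

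The list of calcium handling and channel genes had 28 tested members, of which 8 fell (28.6%) and 5 rose (17.9%). Of all tested genes 23.7% fell and 21.2% rose. Cav3, caveolin of muscle membranes, had 16.3, 31.2 and 29.8 CPM in Asb2 fl/+ and 2.65, 2.20 and 2.27 CPM in Asb2 fl/fl, and 19.7, 10.5 and 16.2 CPM against 3.05, 2.48 and 3.37 CPM with the Flna label. The groups did not overlap (log2 fold change -2.65 with SE 0.22, adjusted p = 1.22e-06). Casq2, the calcium buffer of the cardiac sarcoplasmic reticulum, had 4.64 to 10.5 CPM against 1.06 to 2.20 CPM (-2.01, SE 0.20). Pln, phospholamban, fell by 1.70, Gja5, a connexin of atria and trabeculae, by 1.04 and Trdn, triadin, by 0.99. Those that rose included Ryr2 (0.99), the calcium release channel, and Asph (0.87), a gene that also encodes junctin. The rises were 3 without Asb2 fl/fl 2, Asb2 fl/+ Flna fl/fl 1 or 2, or Asb2 fl/fl Flna fl/fl 3, and the list's median changed sign over the alternatives.

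Of 30 tested cardiac transcription factors 7 rose (23.3%) and 4 fell (13.3%), beside 21.2% and 23.7% of all tested genes. Hand1 had 64.6 to 83.2 CPM against 32.9 to 44.9 CPM (log2 fold change -0.96 with SE 0.09, adjusted p = 4.43e-06) and Hand2 132 to 156 CPM against 89.7 to 114 CPM (-0.49), and neither gene overlapped between the groups. Both are bHLH factors of ventricular growth. Tead1, the DNA-binding partner of YAP, rose by 0.55. The rises were 4 without Asb2 fl/fl 2, Asb2 fl/+ Flna fl/fl 2, or Asb2 fl/fl Flna fl/fl 2 or 3. Of 17 tested trabeculation genes 7 rose and 2 fell (Cited1 and Bmp10). Nppb, a natriuretic peptide gene, had 40.5 to 157 CPM against 139 to 242 CPM, with overlap (1.5), Adamts1, a protease that clears cardiac jelly, rose by 0.54 and Mycn, a growth regulator of the ventricular wall, by 0.49.

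Of 27 tested second heart field and outflow genes 6 rose (22.2%, near the 21.2% of all tested genes) and none fell. The list's median log2 fold change was 0.22, with 0.50 without and -0.02 with the Flna label. Those that rose included Cyp26a1, which degrades retinoic acid (1.10 to 2.25 CPM against 6.85 to 11.7 CPM, log2 fold change 2.15). The growth factors Fgf8 (1.05) and Fgf10 (0.95) were others. Of 22 tested genes of the atrioventricular canal and cushions 4 rose (18.2%) and 3 fell (13.6%). The falls were 5 with the trend over gene length removed. Postn, which encodes periostin, a matrix protein of cushion mesenchyme, had 26.4, 44.0 and 55.5 CPM in Asb2 fl/+, 9.82, 2.17 and 8.36 CPM in Asb2 fl/fl, 37.5, 49.4 and 17.0 CPM in Asb2 fl/+ Flna fl/fl and 9.80, 3.95 and 2.18 CPM in Asb2 fl/fl Flna fl/fl. Levels varied widely within groups, but the groups of 6 did not overlap, and Postn fell by 2.70 on the log2 scale (SE 0.41, adjusted p = 2.64e-04). Zeb1, a regulator of epithelial to mesenchymal transition, rose by 0.73 and the ligand gene Tgfb2 by 0.54.

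Adhesion and matrix lists held more rises than falls. In the actin and adhesion list 19 of 41 tested members rose and 2 fell, with a median log2 fold change of 0.21. Without the Flna label 5 rose and 3 fell, beside 14.2% and 15.9% of all tested genes in that arm. With the label 14 rose and 1 fell, beside 14.0% and 14.2%. The pooled rises ran from 13 to 21 over the alternatives. Lpp, a zyxin relative at focal adhesions, had 112 to 172 CPM against 211 to 354 CPM (0.96), Enah, which extends actin filaments, 99.4 to 144 CPM against 173 to 238 CPM (0.71), and Myh10, nonmuscle myosin IIB, 482 to 684 CPM against 819.6 to 1006 CPM (0.60). Fhl2 (-0.50) and Cfl1, cofilin (-0.48), fell. In the matrix list 19 of 40 rose and 6 fell. Loxl2, an enzyme that crosslinks collagen, had 37.3 to 47.8 CPM against 102 to 136 CPM (1.49, SE 0.09, adjusted p = 1.1e-07), Lama5, a laminin chain of basement membranes, 74.4 to 108 CPM against 187 to 288 CPM (1.3), and Timp3, a protease inhibitor, 55.9 to 71.6 CPM against 123 to 175 CPM (1.25). The falls were Postn, Col3a1 (-1.66), Eln (-1.20), Fbln2 (-0.97), Timp1 (-0.74) and Hapln1 (-0.41). Over the alternatives the falls of the matrix list ran from 3 to 9, and they were 3 without Asb2 fl/fl 2.

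In the TGF-beta and BMP list 21 of 50 tested members rose and 5 fell. The ligand gene Inhba rose by 2.21, the receptor genes Acvrl1 by 1.00 and Tgfbr2 by 0.75, and the effector Smad1 by 0.62. Among targets, Ctgf had 36.2 to 57.3 CPM against 135 to 324 CPM (log2 fold change 2.29 with SE 0.18, adjusted p = 9.69e-07) and Cyr61 38.6 to 67.4 CPM against 90.0 to 165 CPM (1.26), both of which encode matricellular proteins that are also YAP targets. The BMP targets Id2 (-0.25), Id3 (-0.45) and Id4 (-0.37) fell, together with the ligand Bmp10 (-0.60). The falls were 2 or 3 without any 1 of Asb2 fl/+ 2 or 3, Asb2 fl/fl 2 or 3, Asb2 fl/+ Flna fl/fl 1, 2 or 3, or Asb2 fl/fl Flna fl/fl 2.

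In the Notch list 10 of 22 rose and 3 fell (1 with only the 7 libraries that had Xist under 1 CPM). Notch4, a receptor of endothelium (0.90), Jag2, a ligand (0.79), and Numb, an inhibitor (0.42), rose, while the ligand Dll1 (-0.80), the target Heyl (-1.45) and the modifier Rfng (-0.42) fell. In the Wnt list 9 of 37 rose (24.3%) and 5 fell (13.5%), beside 21.2% and 23.7% of all tested genes. The rises were 5 without Asb2 fl/fl 2 or Asb2 fl/fl Flna fl/fl 1. The receptors Fzd7 (0.80) and Fzd4 (0.54) rose and Dkk2, a modulator, fell (-1.38), and the list's median of -0.08 changed sign over the alternatives.

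Cholesterol synthesis and iron handling were lower. Of 23 tested sterol genes 19 fell and none rose, with a median log2 fold change of -0.71, which was -0.42 without and -1.06 with the Flna label. Mvk, mevalonate kinase, had 27.9 to 37.0 CPM (median 34.2) against 13.6 to 22.1 CPM (median 16.1) and a log2 fold change of -0.95 (SE 0.13, adjusted p = 6.36e-05). Its groups did not overlap. Hsd17b7, a sterol ketoreductase, fell by 0.90. Of 22 iron and haem genes 14 fell and 3 rose. Alas2, the erythroid enzyme that starts haem synthesis, fell by 2.72, Steap3, a ferrireductase of red cell precursors, by 2.68 and Alad, the next enzyme of haem synthesis, by 1.27. The rises were Hmox1, haem oxygenase (1.11), Tfrc, the transferrin receptor (0.83), and Cpox (0.54). Alas2 also belongs to the red cell list.

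Markers of other cell types differed too, most of all those of red cells. Of 24 tested primitive erythroid markers 22 fell and none rose, with a median log2 fold change of -2.64, and the 2 that did not pass were Hbb-bs (-0.72) and Sptb (-0.15). The summed level of the list was 7782 to 8518 CPM in Asb2 fl/+, 3290.1 to 4193 CPM in Asb2 fl/+ Flna fl/fl, 629 to 1349 CPM in Asb2 fl/fl and 518 to 729.6 CPM in Asb2 fl/fl Flna fl/fl. The 1-floxed groups differed from each other, as hemoglobin genes show (0.708 to 0.782% of signal in Asb2 fl/+ against 0.304 to 0.412% in Asb2 fl/+ Flna fl/fl), and both lay above the 2-floxed libraries (0.0333 to 0.117%). Scaling the libraries without hemoglobin genes gave 2911 rises and 3388 falls over all genes, near the main counts. The part of red cell transcripts in the falls of iron, haem and other genes was not tested.

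Endocardial and endothelial markers held 13 rises and 1 fall (Cd34, -0.52) among 24 tested, with a summed level of 1339 to 1735 CPM against 1594 to 2552 CPM. Sox17, an endothelial transcription factor, had 4.89 to 8.49 CPM against 18.2 to 26.1 CPM (1.83) and Flt1, a VEGF receptor, 50.4 to 70.3 CPM against 121 to 199.8 CPM (1.46), while Tek (-0.20), Emcn (-0.19) and Plvap (0.08) did not pass. The groups did not overlap for Sox17 or Flt1. Notch4, Nfatc1 and other endothelial genes stand in the Notch and cushion lists as well, and the part of endothelial transcripts in those rises was not tested.

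The keratins shared by the epicardial and pharyngeal lists rose. Krt19 (chromosome 11, 100140810 to 100148665, minus strand) had 155, 103 and 87.7 CPM in Asb2 fl/+ and 416, 728 and 736 CPM in Asb2 fl/fl, and 65.0, 73.9 and 110.2 CPM against 637, 807 and 699.9 CPM with the Flna label. It rose 6.87-fold (log2 fold change 2.78 with SE 0.20, adjusted p = 7.33e-07), with no overlap. Krt18 rose by 0.85 and Krt8, its partner, by 0.86. All 3 keratins belong to both lists, in which 3 of 15 and 6 of 25 tested members rose and 1 and 1 fell, Lrrn4 (-0.77) and Grhl3 (-1.71). The epicardial falls were 5 without Asb2 fl/+ 1, where the list's median turned from 0.11 to -0.32, and 0 without any 1 of Asb2 fl/+ 2 or 3, Asb2 fl/fl 2 or 3, the 3 Asb2 fl/+ Flna fl/fl libraries, or Asb2 fl/fl Flna fl/fl 2 or 3. The pharyngeal rises were 9 without Asb2 fl/fl Flna fl/fl 3, and 6 or more under each alternative. The epicardial markers Wt1 (-0.45), Tcf21 (-0.60) and Upk3b (-0.79) did not pass, and the list summed to 1461 to 2222 CPM against 2661 to 2984 CPM. The pharyngeal list summed to 401 to 717 CPM in the 1-floxed and 1099.8 to 1460.0 CPM in the 2-floxed libraries. Pax8, a transcription factor of thyroid and kidney precursors, had 0.431 to 1.32 CPM against 2.75 to 5.65 CPM (1.73), and Epcam (0.71) and Foxa2 (0.72), which mark endoderm, did not pass. The part of such tissue in the keratin rise was not tested.

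None of the 18 tested neural crest markers passed in either direction with limma (2 higher and 0 lower at an unadjusted p under 0.05, and 1 rise each with edgeR and DESeq2), with summed levels of 184 to 547 CPM against 274 to 609.6 CPM. Leaving out Asb2 fl/+ 2 or Asb2 fl/fl Flna fl/fl 3 gave 2 rises, leaving out Asb2 fl/+ Flna fl/fl 1 or 2 gave 1, and leaving out Asb2 fl/fl 1 gave 1 fall. Of 12 tested neural markers 3 rose, Stmn4, Nes (0.71) and Pax6 (0.85), and 1 fell, Tubb3 (-1.54), and 10 of the 22 members did not enter the test. Elavl3 (-0.04) and Dcx (-1.06), which mark neurons, did not pass. Of 8 tested markers of macrophages and blood 2 rose and 2 fell, each 25.0%, beside 21.2% and 23.7% of all tested genes. Kit, a receptor of progenitor cells, had 16.6 to 25.1 CPM against 55.6 to 90.0 CPM, a 3.67-fold rise, and Lyz2, lysozyme of myeloid cells, rose by 0.77, while Csf1r (-0.86) and Gp1bb (-0.74) fell. Those falls depended on single libraries: there were 4 without Asb2 fl/fl 2, 0 without Asb2 fl/+ 3, Asb2 fl/fl 3 or Asb2 fl/+ Flna fl/fl 1, and 1 without any 1 of Asb2 fl/+ 1, Asb2 fl/fl 1, Asb2 fl/+ Flna fl/fl 2 or 3, or Asb2 fl/fl Flna fl/fl 2 or 3. With only the 7 libraries that had Xist under 1 CPM there were 1 rise and 0 falls, and Lyz2 did not pass. The list's median ran from -0.66 to 0.17 over the alternatives. Of 20 tested liver and yolk sac markers 8 fell and 1 rose (Prox1, 0.42), a rise that was not called without any 1 of Asb2 fl/+ 2, Asb2 fl/fl 2 or 3, Asb2 fl/+ Flna fl/fl 1, or Asb2 fl/fl Flna fl/fl 2 or 3. Apoa1, an apolipoprotein, had 61.0, 1.51 and 38.8 CPM in Asb2 fl/+ and 2.83, 11.96 and 3.82 CPM in Asb2 fl/+ Flna fl/fl, against 0.143 to 4.70 CPM in the 2-floxed libraries, with overlap. The falls of this list were 14 without Asb2 fl/+ 2, and 4 or 5 without any 1 of Asb2 fl/+ 1 or 3, Asb2 fl/fl 2, Asb2 fl/+ Flna fl/fl 2, or Asb2 fl/fl Flna fl/fl 1 or 2. Over the alternatives, a list given above with no rise or no fall held at most 1 call in that direction, apart from the neural crest list. Counts of 1 or 2 moved by 1 when some single libraries were left out, for rises in mitosis and for falls in the p53, sarcomere, trabeculation, actin and neural lists.

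**Figure D3:**
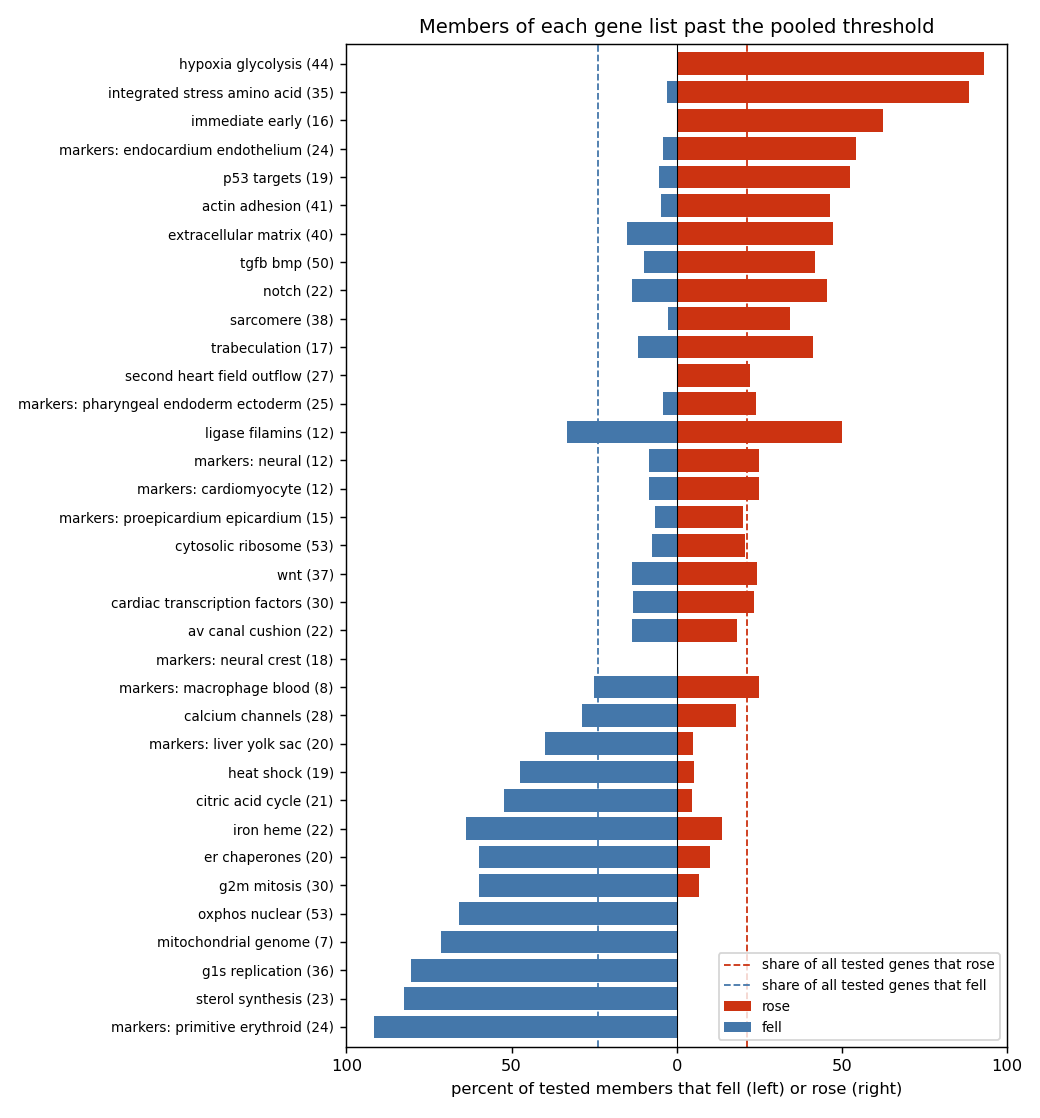
Percent of the tested members of each gene list that rose or fell past the pooled threshold; dashed lines give the shares of all 13981 tested genes, 21.2% risen and 23.7% fallen. The hypoxia and stress lists had the largest shares of rises and the red cell list the largest share of falls.

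The libraries of a group did not move equally. The level of a list in a library was taken as the median over its tested members of log2(CPM + 0.5) minus the gene's mean over all 12 libraries. For hypoxia and glycolysis it was -0.88 to -0.50 in the 1-floxed libraries and 0.46 to 1.02 in the 2-floxed libraries, so that the gap between groups was wider than the range within either. Within Asb2 fl/fl it was 0.46, 1.02 and 0.61 in libraries 1 to 3, and the stress list had 0.10, 0.71 and 0.31. Library 1 of that group was the least shifted and library 2 the most, also for the G1/S list (0.16, -0.61 and -0.13), where the 1-floxed libraries spanned 0.21 to 0.36. The Asb2 fl/fl Flna fl/fl libraries were close together for hypoxia (0.85, 0.77 and 0.80). Sarcomere levels overlapped, at -0.78 to 0.39 in the 1-floxed and -0.34 to 0.51 in the 2-floxed libraries. The red cell list did not overlap, at 0.60 to 1.99 against -1.76 to -0.38, with Asb2 fl/fl 3 the highest of the 2-floxed libraries.

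**Figure D4:**
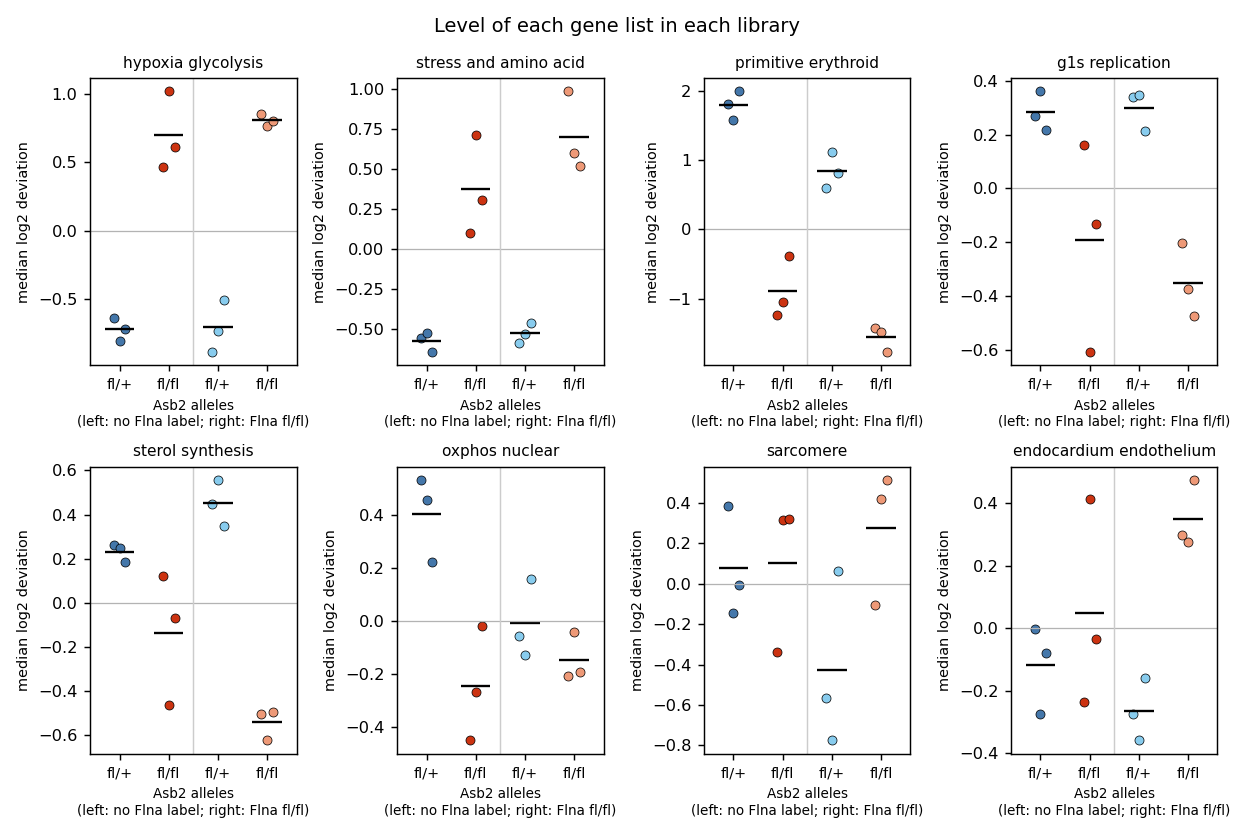
Level of 8 gene lists in each of the 12 libraries, as the median over list members of log2(CPM + 0.5) minus the gene's mean over all libraries; points are libraries and bars are group means of 3. Hypoxia, stress, red cell, G1/S and sterol lists separate the groups of 6 without overlap, whereas the oxidative phosphorylation, sarcomere and endothelial lists do not.

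The 2 arms were set side by side to show what the pooled comparison averages. They also differ in Xist and Y-linked transcripts, as given above. Among libraries without the Flna label 4211 genes passed (30.1%), 1983 higher and 2228 lower, and among libraries with it 3943 (28.2%), 1951 higher and 1992 lower. Both counts come from 1 shared fit, whose spread was estimated from all 12 libraries. Fits on the 6 libraries of each arm alone gave 2962 genes without the label and 4401 with it, the opposite order. Single libraries moved the shared fit's count with the label. It was 2443 to 2610 without any 1 of Asb2 fl/+ Flna fl/fl 1 or 2 or Asb2 fl/fl Flna fl/fl 2 or 3. With no library left out, both arms of the shared fit called 2364 genes, which is 56.1% of the 4211 and 60.0% of the 3943. Of these, 2359 had the same sign. Over all tested genes 76.4% had the same sign in both arms, and the effects correlated across genes with a Pearson coefficient of 0.676 and a Spearman coefficient of 0.683, where genes are not independent replicates. Of the 6271 genes of the pooled comparison, 2359 passed in both arms, 2706 in 1 arm and 1206 in neither, and 725 further genes passed in an arm but not in the pool. The hypoxia list had 41 rises without and 41 with the label, with medians of 1.54 and 1.52. The red cell list had 22 and 21 falls, with medians of -2.82 and -2.54.

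The difference between the arms was tested for every gene, and none passed with limma (0.0%) or with edgeR's quasi-likelihood test. At an unadjusted p under 0.05 there were 1372 such genes, DESeq2 called 71, and the smallest adjusted p of limma was 0.0887. Without Asb2 fl/fl 2 limma called 18 genes and without Asb2 fl/+ Flna fl/fl 2 it called 1. The median SE of a difference was 0.24, against 0.12 for a pooled effect, so a difference of a given size was less detectable than a pooled effect. The 5 genes with the smallest p were Alb, Vtn, Cebpa, Reln and Ebf1. Vtn, vitronectin, had 0, 0.741 and 0.240 CPM in Asb2 fl/+ and 14.1, 1.41 and 9.63 CPM in Asb2 fl/fl, but 9.41, 22.1 and 8.78 CPM in Asb2 fl/+ Flna fl/fl and 0.787, 0.944 and 0.0248 CPM in Asb2 fl/fl Flna fl/fl. Alb, albumin, had 0, 0 and 0.137 CPM in Asb2 fl/+ and 1.93, 0 and 1.03 CPM in Asb2 fl/fl, but 5.95, 26.0 and 7.60 CPM in Asb2 fl/+ Flna fl/fl, and was listed at 0 in all 3 Asb2 fl/fl Flna fl/fl libraries. Cebpa, a transcription factor of liver and myeloid cells, had log2 fold changes of 1.69 without and -2.18 with the label (unadjusted p = 5.04e-05, adjusted p = 0.208), and Reln, an extracellular glycoprotein, 1.99 and -2.70. Ebf1, a transcription factor of lymphoid and mesenchymal cells, had -0.59 and 0.68. Alb, Vtn and Cebpa belong to the liver and yolk sac list, whose summed level was 54.5 to 489 CPM in Asb2 fl/+, 117 to 251 CPM in Asb2 fl/fl, 221 to 682 CPM in Asb2 fl/+ Flna fl/fl and 75.8 to 125 CPM in Asb2 fl/fl Flna fl/fl, and its part in these differences was not tested.

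**Figure D5:**
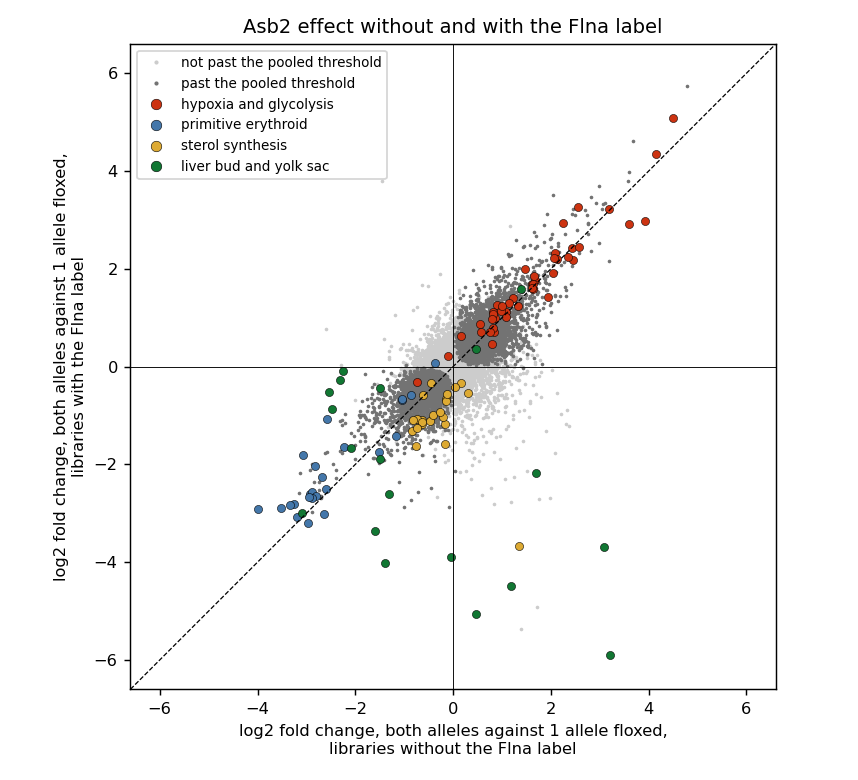
Log2 fold change of each tested gene in the libraries with the Flna label (vertical axis) against that in the libraries without it (horizontal axis); the dashed line marks equal effects, and coloured points are members of 4 lists. Most hypoxia genes lie along the dashed line at positive values and most red cell genes at negative values, whereas liver and yolk sac genes scatter away from it.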

How the data were processed

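RNA of 12 mouse heart samples was sequenced, and 4 tables of pairwise group comparisons were deposited. STAR, HTSeq, edgeR and mm10 are named, without versions, per the submitters' processing notes; annotation, strand and filters are not given in the sources used here. The deposited signal values are CPM on a library size that the authors scaled by 1 factor per library, not plain CPM as had been planned for. Whole reads were recovered for 100% of values within 0.01 read. The tables were joined on gene identifier (14810 of 15663 genes listed for all 12 libraries), and shared values differed by at most 4.43e-06 CPM. The authors' deposited log2 fold changes and p-values were not used, nor were 13 columns that match no sample. The 13981 genes whose mean reached 1 CPM were fitted in R 4.3.3 with limma 3.58.1 (trend, robust) on log2(CPM + 0.5), with Asb2 label and Flna label as terms. A fit of 4 group means, with 1 spread estimated from all 12 libraries, gave the arms and their difference. p-values were adjusted by Benjamini-Hochberg over all tested genes, with a threshold of 0.05. The fitting code was tested on simulated data.

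Named genes were the ligase list, the 10 largest rises and 10 largest falls with at least 5 CPM and no overlap, up to 3 members with the smallest p of each list (2 for marker lists), the 5 genes with the smallest p for the difference between arms, and the 6 rises and 6 falls whose smaller arm effect was largest. A few of these genes are not reported here. The members of the comparison and the gene lists were chosen with earlier results of these data known. Genes were matched to GENCODE M21 coordinates (99.2% of those tested). Alternatives were other pseudocounts, filters, scalings, models, covariates and left-out libraries, with edgeR 4.0.16 and DESeq2 1.42.0 run on the recovered reads. The restriction to the 7 libraries with Xist under 1 CPM was chosen after the data were seen. Figures were drawn with matplotlib 3.10.9.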

Additional observations from a re-analysis of the deposited data

Results flagged for a closer look

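Among 242 groups of 6 libraries, 21 (8.68%) held a library whose gap to the nearest other, divided by the range of the group, was over Dixon's 95% critical value, where chance gives about 5%. Asb2 fl/fl 3 was the highest 2-floxed library for red cell transcripts: Slc4a1 was 19.9 CPM there and 4.47 to 9.78 CPM in the other 5, Alas2 15.0 CPM and 3.37 to 6.01 CPM, Hba-x 328 CPM and 97.0 to 149 CPM, and Hbb-bh1 265 CPM and 73.9 to 132 CPM. It was also the highest for Klf1 at 2.13 CPM, for Pklr at 2.92 CPM, for hemoglobin at 0.117% of signal and for Rnf7 at 130 CPM.

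Asb2 fl/+ Flna fl/fl 2 was the highest 1-floxed library for Fgf10 at 18.9 CPM, Krt18 at 144 CPM, and the liver and yolk sac genes Alb at 26.0 CPM and Fgg at 11.96 CPM, and the lowest for Casq2 at 4.64 CPM. Asb2 fl/fl 1 was the lowest 2-floxed library for Ndufs1 at 189.7 CPM and Asph at 234 CPM and the highest for Apoa1 at 4.70 CPM and Rpl27 at 22.7 CPM. Asb2 fl/+ 1 was the highest 1-floxed library for Atf3 at 15.9 CPM and Nppb at 157 CPM. Asb2 fl/+ Flna fl/fl 1 was the lowest 1-floxed library for Slc7a3, at 0.708 CPM. Asb2 fl/fl Flna fl/fl 3 was the highest 2-floxed library for Cyp26a1, at 11.7 CPM.

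Another 658 genes were listed for every group except Asb2 fl/+ Flna fl/fl and so stood outside the comparison. Of these, 151 (22.9%) had a mean of at least 1 CPM in the 2-floxed libraries, and 75 of them were higher in all 6 than in the 3 Asb2 fl/+ libraries. These genes lack values for 1 of the 1-floxed groups and were kept for their level in the 2-floxed libraries, so that order is largely set by the choice and is given as a description only. In the other direction, 195 genes were listed for Asb2 fl/+ and Asb2 fl/+ Flna fl/fl only, with no 2-floxed value to set beside them. The 7 named genes with such an order and at least 5 CPM were Chac1, a glutathione-degrading ATF4 target (mean 24.4 CPM, with 0.395 to 0.933 CPM in Asb2 fl/+), Adm2, an adrenomedullin relative (10.3 CPM, with 0.384 to 0.592 CPM), Rgs11 (8.0003 CPM), Hrk, a proapoptotic BH3 gene (7.99 CPM), Unc13a (6.05 CPM), Sncb (5.58 CPM) and Xirp2, an actin-binding muscle gene (5.11 CPM).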

How the results depend on the processing

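The pooled count of 6271 genes ranged from 5405 to 6367 when 1 library was left out and from 4534 (only the 7 libraries with Xist under 1 CPM, with 2152 higher and 2382 lower) to 6659 (DESeq2) over 28 alternatives, and median of ratios scaling gave 3129 higher and 3151 lower. Of 118 named genes past the pooled threshold, 110 kept their call and direction under each alternative that could be fitted, 8 lost it under 1 or more (Flna, Kdm5c, Smad9, Cul5, Rnf7, Ttn, Arih2 and Lyz2) and 0 reversed. The count without the Flna label was 2813 to 4255 with 1 library left out. The count with it was 2443 to 4460, and 6473 with library weights. The count for the difference between arms was 0 to 18 with 1 library left out, 8 with library weights and 71 with DESeq2. The Asb2 gene passed with DESeq2 (-0.53) and as the mean of the arm effects (-0.55), and leave-outs gave -0.67 to -0.38. The Flna gene no longer passed without trend and robust fitting (0.34), with library weights (0.23), with the replicate block (0.34), with Xist as a covariate (0.32), with the length trend removed (0.18), without the Flna block (0.34) or in the 7 libraries alone (0.27), and leave-outs gave 0.25 to 0.38. Causes were not tested. Fold change correlated with gene length across genes (Spearman 0.193 pooled, 0.252 without and 0.104 with the label). Equal replicate numbers did not pair the libraries: correlations of deviations ran from -0.465 to 0.426 over 6 pairs of groups. With the replicate block 6037 pooled genes passed, 2877 higher and 3160 lower, with 3901 and 3630 in the arms and 0 for their difference. Depth limits genes of few reads most, since 323 genes had 0 reads in 1 or more libraries.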
